A study of Mus musculus with 4 samples.

Results

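The cells described here are the 768 cells of the WT tumor to which the authors gave the final class name EMT-like, chosen by that name alone. They made up 14.8% of the 5181 annotated cells of that tumor (exact 95% binomial interval 13.9 to 15.8) and were part of 15445 annotated cells in the series. The series holds single-cell RNA libraries of MMTV-PyMT mice: the mouse mammary tumor virus promoter drives the middle T oncogene of polyomavirus in mammary epithelium, which turns hyperplastic and then malignant. There were 4 groups with 1 library each, namely hyperplastic glands and tumors of mice labelled wild type and of mice labelled PKA activated (protein kinase A, the cAMP-dependent kinase). All 4 groups carried MMTV-PyMT, and no treatment is listed for any of them. Glands were taken at 8 to 9 weeks of age and tumors, by the sample labels, at 16 to 20 weeks, where the series design gives a later age. The way in which PKA was activated, the number of mice per library and the gate of the cell sort are not given in the sources used here. With 1 library per group there was no replicate and no test; the 95% intervals below cover counting error only.

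Epithelial-mesenchymal transition (EMT) is the loss of junctions and keratins by epithelial cells together with a gain of mesenchymal proteins such as vimentin and fibronectin. Luminal progenitors are the cells of the mammary epithelium that feed the milk-secreting alveoli; they carry receptors such as Kit and Cd14 and, when they begin to differentiate, casein and alpha-lactalbumin transcripts. Secretoglobins are small secreted proteins of glands and airways, coded in clusters of closely related genes, and in rodents a family of paired alpha and beta chains of this kind is known from saliva and tears.

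The class name was first set against the 4 genes that the authors list for it, and none of them was highest in these cells. Cldn6, a claudin of early epithelium, had 0 UMIs in the 768 cells, compared with 82.4 CPM (counts per 1e6 UMIs of the class) in Mature Luminal cells of the same tumor. It was near 0 in most of the tumor, at 0.599 CPM in Lumino-Basal cells and at most 0.574 CPM in the deposited clusters of Luminal Progenitor 1. Within Mature Luminal it was at 148 CPM in deposited cluster 3 and 0.915 CPM in cluster 1. Trim29, a ubiquitin ligase of stratified epithelium, also had 0 UMIs, compared with 1.72 CPM in Luminal Progenitor 1, 49.0 CPM in Mature Luminal and 19.3 CPM in Lumino-Basal cells. A count of 0 at this depth allowed up to 3 UMIs per gene. Vim, coding for vimentin, stood at 10.6 CPM (26 UMIs in 18 cells), between 1.84 CPM in Mature Luminal and 21.7 CPM in Luminal Progenitor 1 cells. Sox4, a transcription factor, stood at 244 CPM and was lowest here, with 685 CPM in Luminal Progenitor 1, 440 CPM in Mature Luminal and 1308 CPM in Lumino-Basal cells. The 4 genes summed to 255 CPM, of which 244 CPM was Sox4. The sum was lower by a log2 ratio of -1.77 than in the other 3 classes together, and adds little to Sox4 alone. The deposited table has a pair of further columns of names, and both called all 768 cells Unknown. The cells are therefore called EMT-named cells below, and keep the deposited name in the plots.

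Epithelial adhesion genes were expressed, some at low levels. Epcam, an adhesion molecule of epithelia, stood at 3543 CPM, compared with 3247, 2023 and 2382 CPM in Luminal Progenitor 1, Mature Luminal and Lumino-Basal cells. With each cell thinned to 1200 UMIs, so that depth was equal, 97.4% of the EMT-named cells held an Epcam UMI. Junction genes were present at mixed levels. Of 25 measured, none was at least 2-fold higher with an interval beyond 0 than in the other classes together and 4 were lower (Cldn4, Cldn6, Pkp1 and Ovol1), 21 had a ratio below 0, and the median log2 ratio was -0.52. The share of all 18311 measured genes meeting the same rule was 7.41% lower and 4.25% higher, and their median log2 ratio was -0.14. Cdh1, coding for E-cadherin, stood at 99.7 CPM, the lowest of the 7 deposited clusters (107 to 335 CPM in the others), a log2 ratio of -0.93 (-1.13 to -0.75). Cldn3 and Cldn7, claudins of tight junctions, had ratios of 0.04 and -0.04. In a list of 24 mesenchymal genes, 17 had at least 10 UMIs and were counted as measured. Of these, 7 were lower by the same rule (Fn1, Sparc, Col1a1, Col1a2, Col3a1, Itga5 and Postn), and 1 was higher. The higher gene was Snai1, a repressor of E-cadherin, at 28.2 CPM compared with 18.7 CPM in Luminal Progenitor 1. Its log2 ratio to the other classes together was 1.53 (1.12 to 1.93). Against Luminal Progenitor 1 alone, 10 genes of the list were measured, of which 3 were lower (Vim, Sparc and Postn) and none higher. The median log2 ratio of the 10 was -0.18. Fn1 was at 122 CPM in Mature Luminal cluster 1 and at most 2.35 CPM in the Luminal Progenitor 1 clusters. Col1a1, Col1a2 and Col3a1 were highest in Lumino-Basal cells, at 17.7 to 27.7 CPM. Fn1, coding for fibronectin, and Cdh2, coding for N-cadherin, had 0 UMIs, and Zeb1, Zeb2 and Twist1, which drive EMT, were at 0.41, 1.23 and 2.45 CPM.

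**Figure D1:**
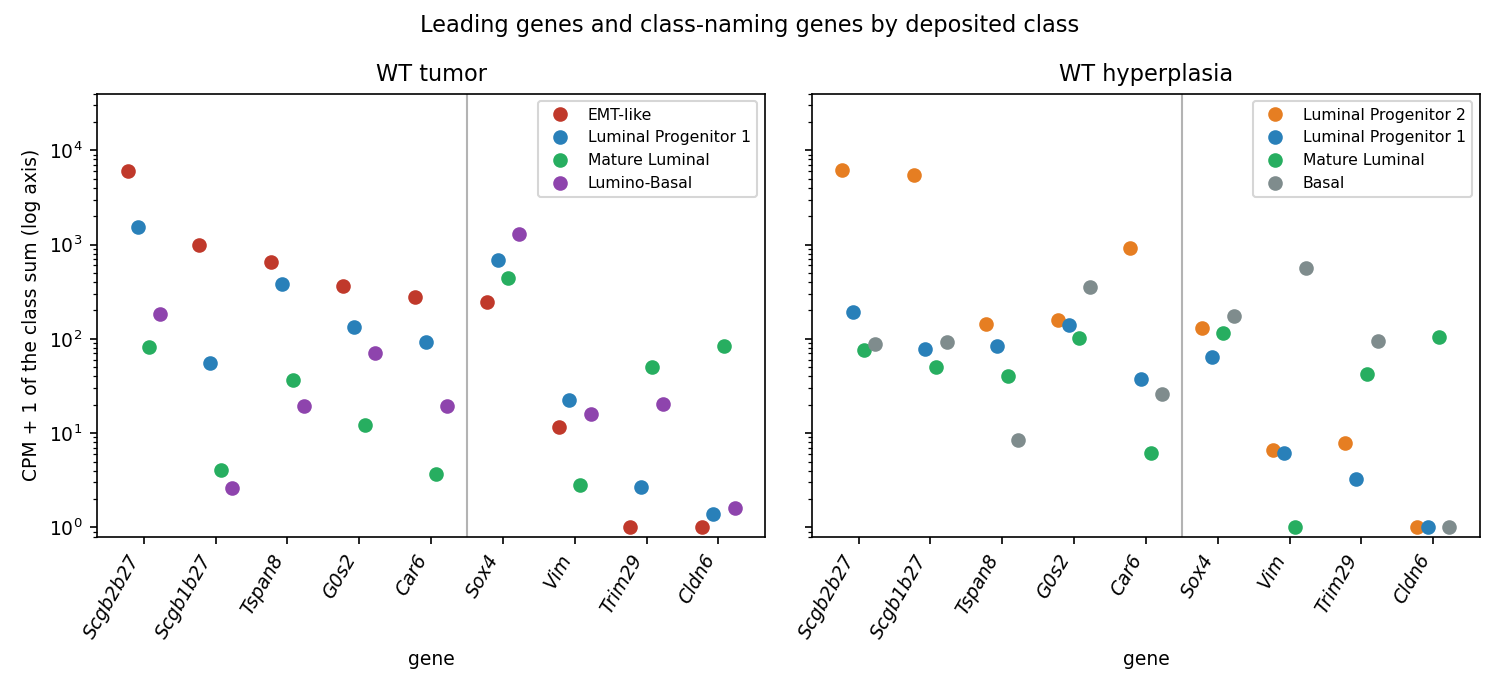
Level of 5 leading genes (left of the grey line) and of the 4 genes listed for the EMT-like class (right of it) in each deposited class of WT tumor and WT hyperplasia, as CPM of the class sum plus 1 on a log axis, with 1 point per class. The EMT-named cells are highest in the WT tumor for all 5 leading genes, lowest for Sox4 and at 0 for Trim29 and Cldn6.

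Markers of non-epithelial cells were at or near 0. The 6 macrophage markers summed to 13.9 CPM (8.40 to 38.3 CPM in the other classes), the 4 endothelial markers to 7.77 CPM, all of it Pecam1, the 4 T and NK cell markers to 1.23 CPM, and the 3 B cell and 3 pericyte markers to 0. Fibroblast markers summed to 33.1 CPM, of which 29.4 CPM was Dcn; Mature Luminal cells held 900 CPM of Dcn.

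The EMT-named cells were the shallowest class of the tumor, with a median of 2860 UMIs per cell, compared with 4143 in Luminal Progenitor 1, 5492 in Mature Luminal and 5314.5 in Lumino-Basal cells. Their median mitochondrial share was the highest, at 2.68% of UMIs, compared with 1.74%, 1.82% and 1.40%. The part of depth and mitochondrial share in the differences below was not tested. Their UMIs summed to 2446156 of 24499374 in the library. A doublet caller marked 39 of the 5181 tumor cells (0.753%) and none of the EMT-named cells. Its sensitivity in this library was not tested, so the absence of calls does not show that the class holds no doublets. Of the 768 cell barcodes, 7 also occurred among the annotated cells of the other 3 libraries.

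The genes that set the class apart were few and led by a secretoglobin cluster. Of 1724 genes with at least 100 CPM in the EMT-named cells, 12 (0.696%) were at least 2-fold above each of the other 3 classes, on a log2 scale of CPM plus 10. Of 1316 genes with at least 100 CPM in all the other classes, 17 (1.29%) were at least 2-fold below each of them. These counts describe classes made from the same cells and carry no test. Luminal Progenitor 1 joins 3 deposited clusters, numbered 5, 6 and 7, and against each of them alone 4 of the 12 genes were still 2-fold higher (Scgb1b27, Scgb2b26, Scgb2b27 and G0s2).

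The 3 leading genes were Scgb1b27, Scgb2b26 and Scgb2b27, an alpha-type and a pair of beta-type secretoglobins from one cluster on chromosome 7. In GRCm38, Scgb2b27 lies on the minus strand at chr7:34011921-34013942 and Scgb1b27 on the plus strand at chr7:34021483-34022881, so that they point away from each other with 7541 bases between their starts. Scgb2b26 lies on the minus strand at chr7:33943002-33945040. Since family members can share reads, 98-base windows in the last 400 bases of their transcripts were searched in the transcripts of all other genes, and 0% of the windows of these 3 genes were found elsewhere. The 250 bases before each start are shown because UMIs of these genes occurred in the same cells. They come from the RefSeq promoter table for GRCm38.p6, 5′ to 3′ on the strand of the gene (its start of Scgb2b26 lies inside the gene as placed above by GENCODE M21), with capitals for runs of at least 12 bases found exactly in both beta-type promoters (70 bases in each).
Scgb2b27 (minus strand, chr7:34013943-34014192): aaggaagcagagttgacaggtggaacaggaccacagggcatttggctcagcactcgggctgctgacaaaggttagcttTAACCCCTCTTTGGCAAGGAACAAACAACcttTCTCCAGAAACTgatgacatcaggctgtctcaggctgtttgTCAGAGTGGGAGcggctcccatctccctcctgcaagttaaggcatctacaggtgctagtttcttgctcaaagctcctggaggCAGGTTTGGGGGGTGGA
Scgb2b26 (minus strand, chr7:33944986-33945235): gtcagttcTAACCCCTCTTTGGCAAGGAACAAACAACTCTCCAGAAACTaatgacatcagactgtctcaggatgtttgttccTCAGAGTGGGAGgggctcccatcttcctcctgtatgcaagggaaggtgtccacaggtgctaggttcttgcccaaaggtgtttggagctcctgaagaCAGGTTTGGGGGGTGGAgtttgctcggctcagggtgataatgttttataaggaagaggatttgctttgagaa
Scgb1b27 (plus strand, chr7:34021231-34021480): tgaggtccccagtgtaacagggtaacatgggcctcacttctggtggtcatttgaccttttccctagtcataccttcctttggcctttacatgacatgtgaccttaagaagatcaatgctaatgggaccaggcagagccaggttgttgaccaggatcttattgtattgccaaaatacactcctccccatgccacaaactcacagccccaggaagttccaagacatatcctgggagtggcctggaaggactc
By the starts of the promoter table, the longest shared run lies further upstream in Scgb2b26 than in Scgb2b27. GENCODE M21 places the start of Scgb2b26 elsewhere, so this offset is not read as a difference between the genes. On either strand, a TATA box (TATAAA) was found in the Scgb2b26 window only, as tttata 29 bases before the start, and in 13.0% of 27025 promoters of this length. The match follows the last shared run, in the part of the window that GENCODE M21 places inside the gene. In Scgb2b27 that run ends the window and the bases after it were not searched, so no difference between the genes is read from it. A STAT motif (TTCNNNGAA, in 7.18% of promoters) and an AP-1 motif (TGACTCA, in 4.43%) were not found in these 250 bases of any of the 3 genes, which says only that these letters are absent from the windows.

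Scgb1b27 stood at 986 CPM in the EMT-named cells, 54.8 CPM in Luminal Progenitor 1, 3.07 CPM in Mature Luminal and 1.65 CPM in Lumino-Basal cells. Of all Scgb1b27 UMIs in the annotated tumor, 80.0% lay in the EMT-named cells. Scgb2b27 stood at 6066, 1529, 80.9 and 184 CPM in the same order, and Scgb2b26 at 163, 27, 0.410 and 2.70 CPM. In all 3 genes Luminal Progenitor 1 came second. Scgb2b24, another beta-type gene, held 18.0 CPM (44 UMIs) compared with 3.33 CPM in Luminal Progenitor 1.

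These levels came from very unequal numbers of cells. Scgb1b27 was found in 43 of 768 cells (5.60%), of which 19 held 10 or more UMIs and 11 held 1. Of its 2411 UMIs, 50% lay in 4 cells, and 20.3% in 1 cell. The counting interval of its log2 ratio to the other classes together, 5.18 (5.05 to 5.31), therefore understates the uncertainty. Scgb2b26 was found in 70 cells, with 50% of its UMIs in 9. Scgb2b27 was found in 603 cells (78.5%), with 50% of its UMIs in 40. For comparison, Csn3, the kappa-casein gene, was found in all 768 cells, with 50% of its UMIs in 202. When the 2% of cells of each class with most UMIs of the gene were left out (15 EMT-named cells), Scgb1b27 stood at 64.1 CPM in the EMT-named cells and 2.74 CPM in Luminal Progenitor 1. Scgb2b27 then stood at 4349 and 1023 CPM. All 12 genes stayed at least 2-fold above each other class in this setting, which was chosen after seeing the data. The minimum level that defined the 12 was not applied again. Scgb1b27, Scgb2b26 (54.5 CPM) and Hepacam2 (91.1 CPM) fell below it. Where under 2% of a class held a gene, all of its UMIs there were left out, so the ratio to that class was not tested. Scgb1b27 was in 10 of 872 Mature Luminal and 9 of 1198 Lumino-Basal cells, and both classes then stood at 0 CPM.

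**Figure D2:**
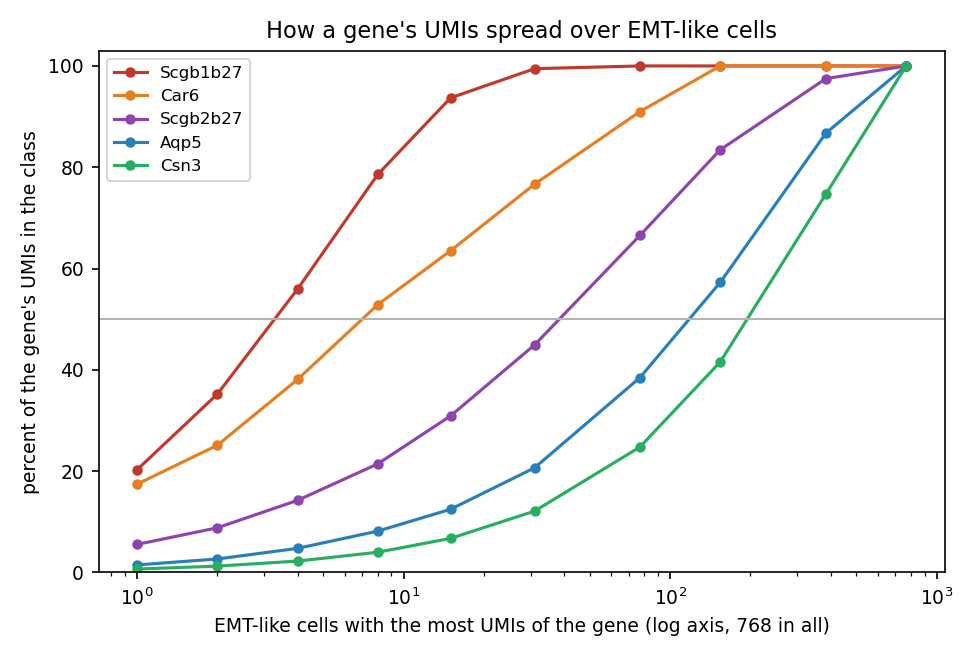
Cumulative percent of a gene's UMIs in the 768 EMT-named cells against the number of cells, counted from the cell with the most UMIs of that gene (log axis); the grey line marks 50%. Scgb1b27 reaches the line with 4 cells and Car6 with 7, compared with 40 for Scgb2b27, 120 for Aqp5 and 202 for Csn3.

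At equal depth the same split was seen. With 1200 UMIs per cell, 3.78% of EMT-named cells (2.54 to 5.38) held a Scgb1b27 UMI, compared with 1.54% of Luminal Progenitor 1, 0.115% of Mature Luminal and 0.0835% of Lumino-Basal cells. The last 2 classes, at median depths of 5492 and 5314.5 UMIs before thinning, serve as the background for a class that should lack the gene; free RNA itself was not measured. Scgb2b27 was found in 65.0% of EMT-named cells (61.5 to 68.3), 38.0% of Luminal Progenitor 1, 3.56% of Mature Luminal and 7.51% of Lumino-Basal cells. Of the 29 thinned cells with a Scgb1b27 UMI, 28 (96.6%) also held Scgb2b27, compared with 63.7% of the 739 others. Car6 occurred in 13 of the 29 (44.8%) and in 9.20% of the others, and Scgb2b26 in 34.5% and 4.87%.

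Car6, a secreted carbonic anhydrase of saliva and milk at chr4:150187015-150201332 on the minus strand, stood at 277 CPM, compared with 92.4, 2.66 and 18.6 CPM in Luminal Progenitor 1, Mature Luminal and Lumino-Basal cells. In Luminal Progenitor 1 cluster 6 alone it stood at 233 CPM, close to the EMT-named cells. It was found in 138 cells (18.0%), and 7 of them held 50% of its UMIs; without the 2% of cells highest for it, it stood at 104 CPM compared with 42.8 CPM in Luminal Progenitor 1. Aqp5, the water channel of secretory gland cells, was spread over 695 cells (90.5%) at 2400 CPM, compared with 1286, 838 and 175 CPM. It missed the 2-fold rule against Luminal Progenitor 1, with a log2 CPM ratio of 0.90 (0.85 to 0.94). Pigr, the receptor that carries immunoglobulin A into secretions, stood at 157, 69.8, 10.0 and 32.8 CPM. Of 43 genes listed as secretoglobins and salivary-type secreted proteins, 25 were measured, 9 higher and 6 lower than in the other classes together. Among all measured genes 4.25% were higher and 7.41% lower. Against Luminal Progenitor 1 alone, 6 of 24 were higher and 4 lower, where the shares of all genes were 2.64% and 3.16%. Wfdc2, one of the 6 lower than the other classes together, was at 114 CPM compared with 5830 CPM in Mature Luminal cells. It was at 42.2 to 245 CPM in the Luminal Progenitor 1 clusters. Ltf, coding for lactoferrin, was at 881 CPM compared with 3585 CPM in Lumino-Basal cells, but at only 132 to 134 CPM in the Mature Luminal clusters. Bhlha15, a factor of secretory cells, was at 28.2 CPM, and the salivary genes Smr3a and Pip had 1 and 0 UMIs.

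The other leading genes were more evenly spread. Slc31a2, a copper transporter, was found in 547 cells (71.2%) at 645 CPM, compared with 260, 41.2 and 121 CPM in the other classes, in the same order. G0s2, an inhibitor of the fat-cleaving lipase Pnpla2, stood at 364 CPM compared with 132, 11.1 and 69.2 CPM. Cd27, known as a receptor of lymphocytes, stood at 179 CPM in 249 cells, compared with 66.1, 9.83 and 16.5 CPM. The small membrane protein gene Hrct1 (137 CPM), the adhesion molecule gene Hepacam2 (115 CPM) and the collagen gene Col25a1 (181 CPM) each had 45.1 to 79.0 CPM in Luminal Progenitor 1 and at most 17.7 CPM elsewhere. The mitochondrial ribosomal RNA mt-Rnr1 was the remaining one of the 12. Genes next in order but under 2-fold over Luminal Progenitor 1 were Tob2, Car12, Kcnn4, Bglap3, Col11a1, St6galnac4, Arrdc3 and Ralgapa2, with log2 CPM ratios to it of 0.86 to 0.94. Tspan8, a tetraspanin of mammary stem and luminal cells, stood at 656 CPM compared with 379, 35.2 and 18.4 CPM and was likewise under 2-fold over Luminal Progenitor 1. Throughout this group Luminal Progenitor 1 held the second-highest level, other than for Bglap3, where Lumino-Basal cells had 422 CPM and Luminal Progenitor 1 cells 410 CPM.

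Luminal progenitor and milk genes were mixed. The most abundant transcripts were Csn3 at 52616 CPM, Wfdc18, a protease inhibitor of milk, at 21856 CPM, and Lcn2, an iron-binding defence protein, at 19617 CPM; 3′ counts are not divided by gene length. Csn3 was at 35896, 1432 and 9229 CPM in Luminal Progenitor 1, Mature Luminal and Lumino-Basal cells, the level in Mature Luminal cells being that of a class in which 40.3% of thinned cells held a UMI. Lalba, coding for alpha-lactalbumin, was at 1607 CPM compared with 994, 25 and 204 CPM. Of 17 measured luminal progenitor genes, 3 were higher than in the other classes together (Lalba, Csn3 and Trf) and 4 lower (Aldh1a3, Ltf, Cxcl1 and Mfge8), with a median log2 ratio of 0.14. Kit was at 146 CPM compared with 105 CPM in Luminal Progenitor 1, and Cd14 at 785 compared with 1017 CPM. Against Luminal Progenitor 1 alone, none of 16 measured genes of that list was higher and 3 were lower. Of 13 measured milk protein genes 3 were higher than in the other classes together (Csn1s2a, Csn3 and Lalba) and 2 lower (Csn2 and Glycam1). For both lists, the shares of all measured genes were 4.25% higher and 7.41% lower than in the other classes together. Against Luminal Progenitor 1 these shares were 2.64% and 3.16%. Csn2, coding for beta-casein, had 0 UMIs here as in Luminal Progenitor 1 and Mature Luminal cells.

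The 10 lowest of these genes were led by the claudin gene Cldn4 and by Nfkbia, and held a pair of keratins. Cldn4, a claudin, was at 150 CPM compared with 686, 1943 and 1389 CPM in Luminal Progenitor 1, Mature Luminal and Lumino-Basal cells, a log2 ratio to the 3 together of -2.98 (-3.13 to -2.83). At equal depth 12.8% of EMT-named cells held a Cldn4 UMI, compared with 42.3%, 86.0% and 67.3%. Nfkbia, the inhibitor of NF-kB that NF-kB itself induces, was at 271 CPM compared with 1328, 1019 and 1554 CPM. Atf3, a stress-induced factor, was at 978 CPM compared with 2706, 2555 and 2625 CPM. Krt8, a keratin of simple epithelium, was at 833 CPM compared with 1921, 4410 and 2012 CPM, and was found in 57.2% of thinned EMT-named cells compared with 68.3% to 96.8% in the others. Emp1, Fam110a, Lmna, Tsc22d1, Nfkbiz and Krt19 completed the 10 lowest genes. Of the 17 lower genes, 16 stayed at least 2-fold below each other class when the 2% of cells with most UMIs of the gene were left out of each class, and Hilpda did not.

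Summed over lists, 15 of 18 measured keratins were lower in the EMT-named cells than in the other classes together, and none was higher. Among all measured genes 7.41% were lower and 4.25% higher by this rule. Keratin UMIs summed to 5134 CPM, compared with 9035, 36893 and 13358 CPM in Luminal Progenitor 1, Mature Luminal and Lumino-Basal cells. Within Luminal Progenitor 1 the sum was 6242 CPM in cluster 6, and 9472 and 11579 CPM in clusters 5 and 7. Against Luminal Progenitor 1 alone, 6 of 15 measured keratins were lower (Krt8, Krt19, Krt14, Krt17, Krt79 and Krt80), where 3.16% of all 15881 measured genes were lower and 2.64% higher. Mature luminal genes (12 of 14 lower) and squamous genes (14 of 20 lower) showed another pattern, since against Luminal Progenitor 1 none of 13 and 2 of 14 were lower. Of the basal and myoepithelial genes, 10 of 15 were lower than in the other classes together and 9 of 14 lower than in Luminal Progenitor 1. Krt14, a basal keratin, was at 72.4 CPM compared with 327 CPM in Luminal Progenitor 1 and 948 CPM in Lumino-Basal cells, and Krt17 at 9.40 compared with 124 and 431 CPM. In Luminal Progenitor 1 cluster 6 alone Krt14 was at 52.8 CPM, below the EMT-named cells, with 378 and 527 CPM in clusters 5 and 7. Krt17 was at 72.3 to 170 CPM in these clusters.

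Immediate early genes, transcribed within minutes of a stimulus and also during tissue dissociation, summed to 26271 CPM, compared with 51683, 30062 and 32542 CPM in Luminal Progenitor 1, Mature Luminal and Lumino-Basal cells. Within Luminal Progenitor 1 the sum was 33546 CPM in cluster 6, and 57882 and 49877 CPM in clusters 5 and 7. Mature Luminal cluster 1, at 26899 CPM, was close to the EMT-named cells, and cluster 3 was at 32628 CPM. Of 20 measured members, 9 were lower than in the other classes together, 11 lower than in Luminal Progenitor 1, and none higher in either. Ier3, a target of NF-kB, was at 1208 CPM compared with 4798 CPM in Luminal Progenitor 1, Junb at 2537 compared with 6177 CPM, Nr4a1 at 318 compared with 1097 CPM, and Klf4 at 133 compared with 495 CPM. Fos was at 6353 CPM, which was under Luminal Progenitor 1 (9521 CPM) but above Mature Luminal (5911 CPM) and Lumino-Basal cells (4531 CPM). Ier2, Zfp36 and Dusp1 were likewise above the clusters of both those classes, at 2625, 1163 and 2076 CPM, and under Luminal Progenitor 1 cluster 5, at 3706, 1998 and 3788 CPM. NF-kB response genes and chemokines were lower in 12 of 21 measured members, and in 10 of 17 against Luminal Progenitor 1. For both lists, the share of all measured genes that were lower was 7.41% against the other classes together. Against Luminal Progenitor 1 it was 3.16%. Icam1, a leukocyte adhesion molecule, had 0 UMIs, and Cxcl2, a neutrophil chemokine, was at 2.04 CPM compared with 61.5 CPM in Luminal Progenitor 1. Cxcl5, another neutrophil chemokine, was the exception, at 57.2 CPM compared with 13.8, 2.46 and 0.450 CPM, a log2 ratio of 2.98 (2.64 to 3.32).

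Transcripts of dividing cells were few here and in the nearest cluster of Luminal Progenitor 1. Of 18 G2/M genes 15 were lower than in the other classes together and 13 lower than in Luminal Progenitor 1. Among all measured genes 7.41% were lower and 4.25% higher than in the other classes together, and 3.16% lower than in Luminal Progenitor 1. The sum of the G2/M genes was 34.7 CPM, compared with 136, 271 and 75 CPM. Within Luminal Progenitor 1 it was 42.4 CPM in cluster 5 and 459.7 CPM in cluster 6, so that the class value rested on the second. S phase genes summed to 184 CPM, compared with 222, 341 and 168 CPM, with 1 of 15 higher (Slbp) and 4 lower. Mki67 had 0 UMIs in the 768 cells, and in the other classes it was at only 3.00 to 7.58 CPM; 0 of 768 cells allows a share of up to 0.391% of cells with a UMI.

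The counts for interferon and MHC genes were near the 4.25% of all genes. Interferon response genes had a median log2 ratio of 0.77 to the other classes together with 1 of 17 higher (Ifi44), and 0.15 with none higher against Luminal Progenitor 1. MHC and peptide loading genes had medians of 0.58 and 0.46, with 1 of 16 higher and 1 lower against the other classes together and none against Luminal Progenitor 1. H2-K1, a class I molecule, was at 2899 CPM compared with 1941, 1506 and 589 CPM. Genes of protein folding in the endoplasmic reticulum (20 measured) and of nuclear-coded oxidative phosphorylation (20 measured) held none past 2-fold in either direction, with medians of 0.20 and -0.14.

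**Figure D3:**
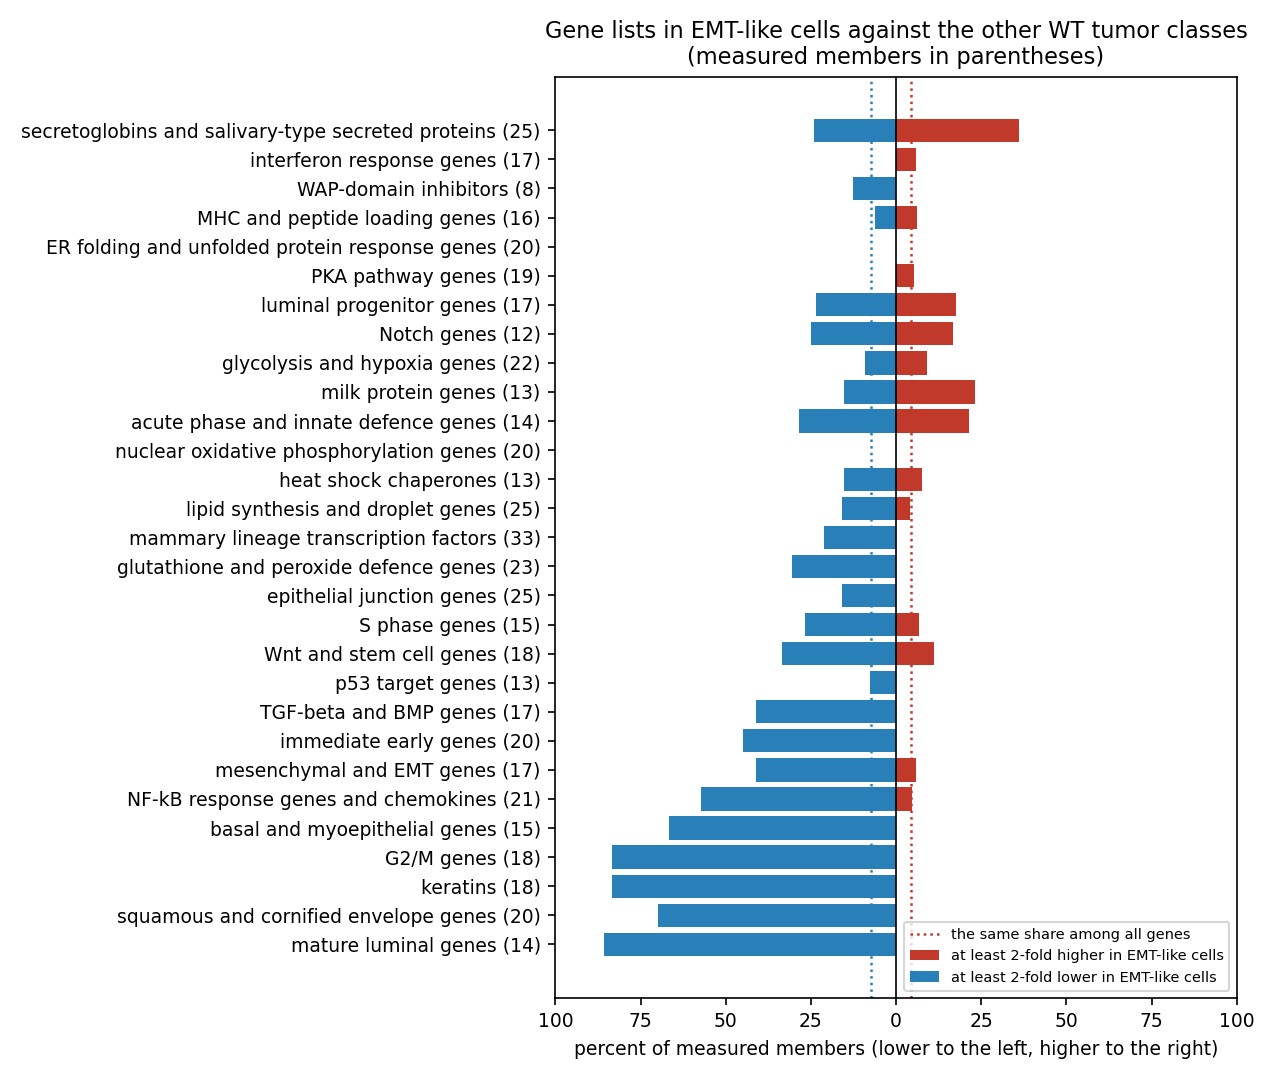
Percent of measured members of each gene list that were at least 2-fold higher (red, right) or lower (blue, left) in EMT-named cells than in the other 3 WT tumor classes together, with an interval of counting error beyond 0; lists with at least 8 measured members are ordered by median. Dotted lines mark 4.25% and 7.41%, the shares among all 18311 measured genes; keratins (15 of 18), G2/M genes (15 of 18) and mature luminal genes (12 of 14) reach furthest left.

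Among the classes of the tumor, Luminal Progenitor 1 was nearest. Of 1904 genes with at least 100 CPM in the higher class, 12 (0.63%) were 2-fold higher and 72 (3.78%) 2-fold lower in the EMT-named cells than in Luminal Progenitor 1. The same shares were 13.0% and 15.1% against Mature Luminal and 9.18% and 12.5% against Lumino-Basal cells. All EMT-named cells lay in one deposited cluster, numbered 4. Across 2637 genes its log2 levels correlated with those of the 3 Luminal Progenitor 1 clusters at Pearson's r of 0.956 (cluster 5), 0.892 (cluster 6) and 0.875 (cluster 7), with that of the Lumino-Basal cluster at 0.728, and with those of the 2 Mature Luminal clusters at 0.534 and 0.502. These correlations are across genes, which are not independent, and the clusters share 1 library.

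Likeness to the earlier stage was examined because Luminal Progenitor 2, a class of the hyperplastic glands, has no namesake in the tumor. In WT hyperplasia, Scgb1b27 stood at 5440 CPM in Luminal Progenitor 2, 76.5 CPM in Luminal Progenitor 1, 49.5 CPM in Mature Luminal and 92.0 CPM in Basal cells. Scgb2b27 stood at 6230, 191, 75.5 and 87.0 CPM and Car6 at 929, 36.4, 5.21 and 24.9 CPM in the same order. Against Luminal Progenitor 2, the EMT-named cells thus held Scgb1b27 at a log2 ratio of -2.46 (-2.53 to -2.40), Scgb2b27 at -0.04 (-0.07 to -0.00) and Car6 at -1.75 (-1.87 to -1.62). In Luminal Progenitor 2, too, few cells held most Scgb1b27 UMIs, with 50% in 5 of 770 cells and a UMI in 176. Scgb2b26 went the other way, at 163 CPM in the EMT-named cells and 13.0 CPM in Luminal Progenitor 2.

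Of the 12 leading genes, 10 reached 10 CPM in a class of WT hyperplasia, and 7 of these (70%, exact 95% interval 34.8 to 93.3) were highest in Luminal Progenitor 2: Car6, Pigr, Scgb1b27, Scgb2b26, Scgb2b27, Slc31a2 and mt-Rnr1. This interval is over genes, which are not independent, and the secretoglobins among the 7 lie in one cluster, so it understates the uncertainty. Among all 1718 genes that passed both minimums the share was 23.6%. In PKA hyperplasia 6 of 11 (54.5%) were highest in Luminal Progenitor 2, with 28.0% of 1721 genes as background, and mt-Rnr1 was no longer among them. The rest of the 10 genes in WT hyperplasia were Cd27 (20.8 CPM) and Hepacam2 (180 CPM), highest in Mature Luminal, and G0s2 (351 CPM), highest in Basal cells. In the other direction, 26 genes were at least 2-fold higher in Luminal Progenitor 2 than in every other class of WT hyperplasia, and 16 of them (61.5%) were highest in the EMT-named cells among the tumor classes, with 21.0% of 1620 genes as background. The 2 sets of leading genes shared Car6, Scgb1b27, Scgb2b27 and Slc31a2, which is 33.3% of the 12 and 15.4% of the 26. Luminal Progenitor 2 also had the highest median mitochondrial share of its library, at 4.13% compared with 1.69% in Luminal Progenitor 1; mitochondrial genes stayed out of the profiles used next.

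Over 3081 genes, profiles centred on the mean of the classes of each library gave the EMT-named cells a Pearson's r of 0.36 with Luminal Progenitor 2, 0.23 with Luminal Progenitor 1, 0.01 with Basal and -0.35 with Mature Luminal cells. For Luminal Progenitor 1 of the tumor the first 2 values were 0.32 and 0.40. In PKA hyperplasia the EMT-named cells gave 0.40 with Luminal Progenitor 2 and 0.35 with Luminal Progenitor 1, a smaller gap. Cell by cell, at 1200 UMIs, 500 of the 768 cells (65.1%, 61.6 to 68.5) resembled Luminal Progenitor 2 most, 234 (30.5%) Luminal Progenitor 1, 34 (4.43%) Basal and 0 Mature Luminal cells. Without the secretoglobin genes and Car6 the first share was 63.3%, and against the classes of PKA hyperplasia it was 57.8%. Of Luminal Progenitor 1 cells of the tumor 39.2% resembled Luminal Progenitor 2 most, of Lumino-Basal cells 37.4% and of Mature Luminal cells 0.229%. As a reference, the measure returned 86.7% of thinned Luminal Progenitor 2 and 93.2% of Luminal Progenitor 1 cells of WT hyperplasia to their own class, from whose sums it was built.

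**Figure D4:**
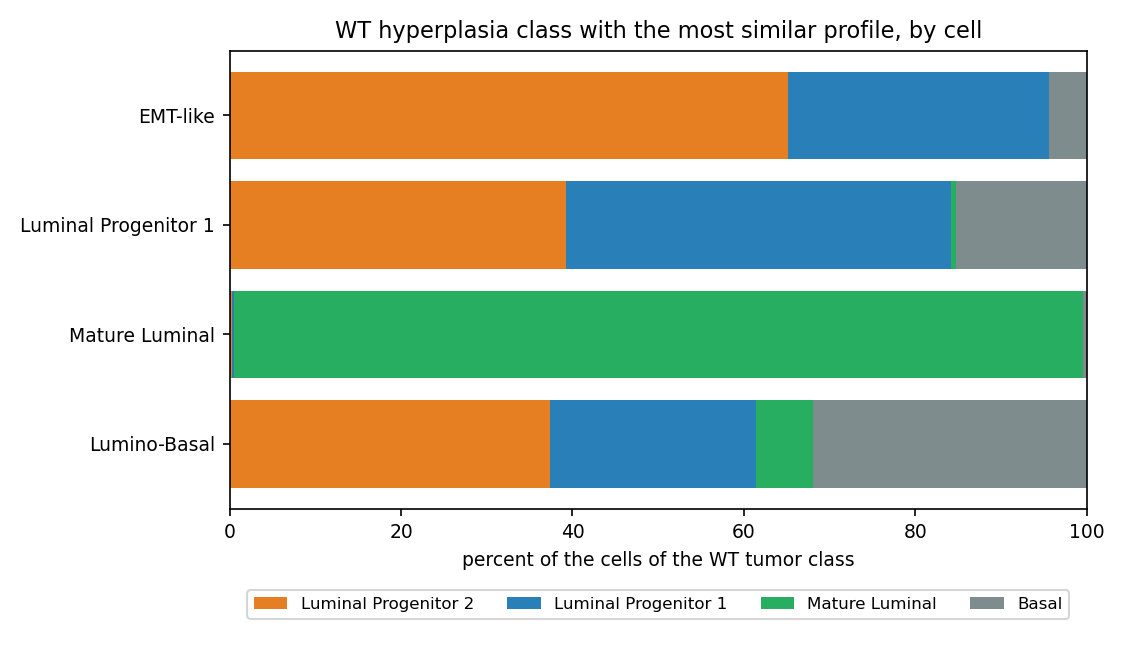
Percent of the cells of each WT tumor class, at 1200 UMIs per cell, whose centred profile correlated best with each class of WT hyperplasia. The orange part, Luminal Progenitor 2, covers 65.1% of the EMT-named cells, 39.2% of Luminal Progenitor 1, 37.4% of Lumino-Basal and 0.229% of Mature Luminal cells.

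The distance to Luminal Progenitor 2 remained large. Of 2123 genes with at least 100 CPM in the higher class, 369 (17.4%) were 2-fold higher and 365 (17.2%) 2-fold lower in the EMT-named cells. Stage, library and dissociation (glands also had trypsin and dispase) differ between the 2 classes and cannot be told apart. The same comparison for Luminal Progenitor 1 of both libraries gave 15.1% higher and 14.4% lower of 2099 genes. Of the 369 higher genes 235 were also 2-fold higher there, and of the 365 lower genes 226 were also lower; across 2022 genes the 2 differences correlated at r of 0.86. The libraries are the same in both comparisons, so the second is not independent of the first.

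All 20 named genes furthest from Luminal Progenitor 2 were also at least 2-fold apart, in the same direction, between the Luminal Progenitor 1 classes, on the scale of CPM plus 10. In 11 of them the ratio there was nearer to 0. Fos was at 6353 CPM compared with 291 CPM in Luminal Progenitor 2, a log2 ratio of 4.45, and the ratio of the Luminal Progenitor 1 classes was 5.26. Klf2, a factor of the Kruppel family, was at 486 compared with 4.63 CPM (6.71, and 9.76 in Luminal Progenitor 1). Dusp1, a phosphatase of MAP kinases, gave 4.26 and 4.86, and Hspa1a, a heat shock chaperone, 4.86 and 3.98. Ptx3, Tob1, Cited4 and Kcne3 were higher by 4.65 to 7.70, and in Luminal Progenitor 1 by 5.03 to 6.64. Among the lower genes Pfn1, coding for the actin-binding profilin, gave -5.70 and -5.86, and Csf3, a granulocyte growth factor, -8.20 and -5.43. The metallothionein genes Mt1 and Mt2 gave -4.57 and -6.33, compared with -2.96 and -4.71 in Luminal Progenitor 1. The apolipoprotein gene Apoc1 gave -5.01 and -2.54 and the neutrophil protein gene S100a8 -4.88 and -4.45. The caseins Csn1s2a and Csn2 and the cytokine Il24 were also among the 10 lowest, the last 2 with 0 UMIs here and 347 and 620 CPM in Luminal Progenitor 2.

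Among the genes with ratios nearer to 0 in Luminal Progenitor 1 were Spp1, Cst3 and Cldn4. Spp1, coding for osteopontin, a matrix protein secreted by glands, was at 5341 compared with 253 CPM in Luminal Progenitor 2, a log2 ratio of 4.4 (4.28 to 4.53), while the Luminal Progenitor 1 classes held 5896 and 2479 CPM, a ratio of 1.25. Cst3, a protease inhibitor, gave 4.26 and 1.72. Cldn4 was at 150 compared with 3718 CPM in Luminal Progenitor 2, a ratio of -4.64 (-4.79 to -4.48), and gave -1.70 in Luminal Progenitor 1. Whether these pairs of ratios differ beyond the spread between mice could not be tested.

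**Figure D5:**
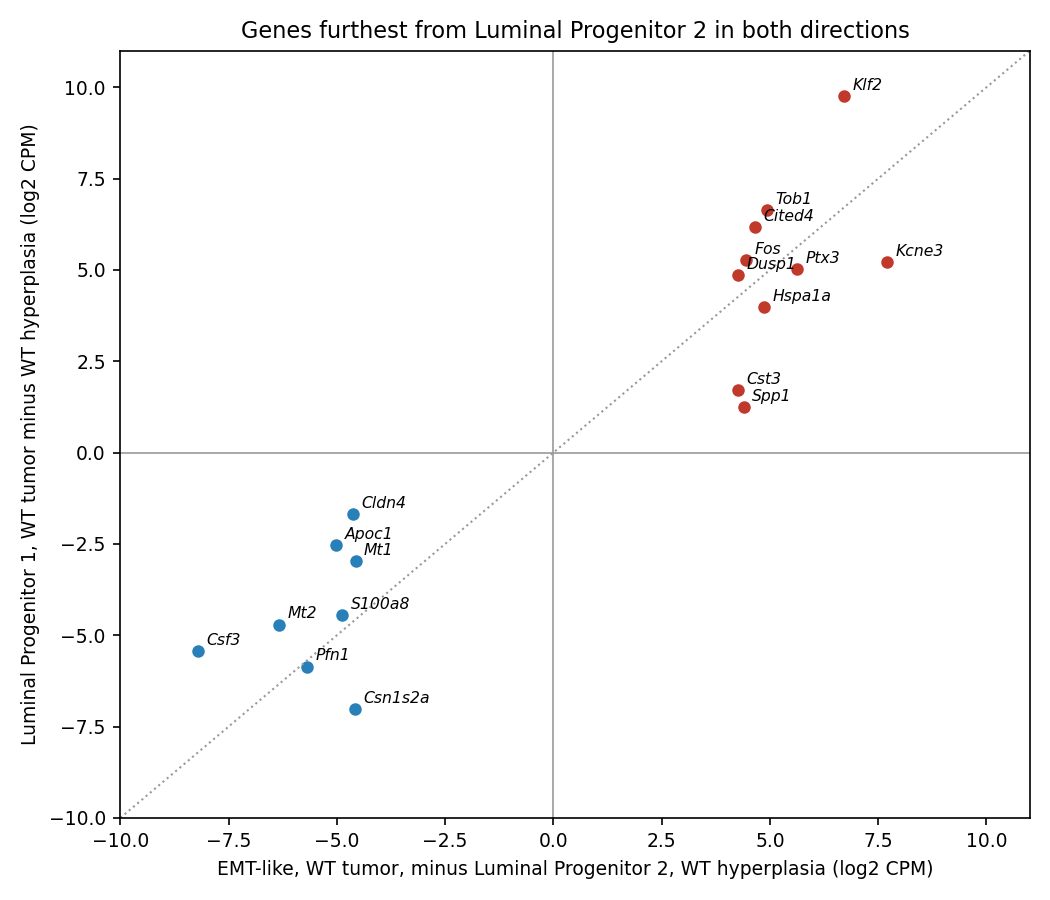
Log2 CPM ratio of EMT-named cells to Luminal Progenitor 2 of WT hyperplasia (horizontal) and of Luminal Progenitor 1 of WT tumor to that of WT hyperplasia (vertical) for the 10 highest (red) and 10 lowest (blue) genes of the first ratio; the dotted line marks equal ratios. Il24 and Csn2, at 0 UMIs in EMT-named cells, are not drawn; Spp1, Cst3, Cldn4, Apoc1 and others lie nearer to 0 on the vertical axis than on the horizontal one.

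Since the deposited clustering held the EMT-named cells as a single cluster, 3 groups of them were made here from 500 variable genes. They are a description, made after the data were seen, of cells that vary along a range, and their defining genes carry no test. Group 1 (320 cells, median 3542 UMIs) held most immediate early transcripts, with Atf3 at 1750 CPM in 86.3% of its cells compared with 218 CPM in 30.6% of the others. Group 2 (284 cells) was the shallowest, at 2274 UMIs, with the highest median mitochondrial share, 3.64%, compared with 2.30% in group 1 and 2.5% in group 3; Atf3 was at 146 CPM there. Group 3 (164 cells) held Spp1 at 12092 CPM compared with 3550 CPM in the others, and Mfge8, a milk fat globule protein, at 747 compared with 110 CPM. The neuropeptide Npy, at 329 CPM, led group 3 but came from 15 of its cells.

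Summed secretoglobin levels differed between the groups. Scgb1b27 was at 1475 CPM in group 1, 858 CPM in group 2 and 5.85 CPM in group 3, and Scgb2b27 at 7803, 6601 and 1209 CPM. Car6 was at 405, 221 and 52.6 CPM. The Scgb1b27 levels rested on few cells, since only 26, 14 and 3 cells of these groups held a UMI. Scgb2b27 was found in 62.2% of group 3 cells and 82.9% of the other EMT-named cells, and Car6 in 9.76% and 20.2%. Luminal Progenitor 2 was the most similar class for 72.2% and 76.8% of the cells of groups 1 and 2, and for 31.1% of group 3. Since the genes that divide the groups are part of the matching profile, the shares were also taken without secretoglobins and Car6, and were then 70.3%, 74.6% and 29.9%; other genes still enter both the grouping and the match. Csn3 was even across them, at 51943, 52282 and 54677 CPM, and so was Epcam, at 3493, 3504 and 3717 CPM. The 43 cells with a Scgb1b27 UMI were deeper than the rest, with medians of 4081 and 2780 UMIs, and 39 of them (90.7%) resembled Luminal Progenitor 2 most, compared with 63.6% of the 725 others. That match includes the gene that chose the cells; without secretoglobins and Car6 the shares were 83.7% (69.3 to 93.2) and 62.1% (58.4 to 65.6). Scgb2b27 was at 33113 CPM in those 43 cells and 3887 CPM in the others. Spp1 was at 1370 and 5661 CPM, and Ltf at 104 and 944 CPM.

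In the PKA tumor 238 cells had the same class name, and their centred profile correlated with that of the WT tumor class at r of 0.77 over 2807 genes, compared with 0.61 for Luminal Progenitor 1 of that tumor. Their secretoglobin levels were lower, with Scgb2b27 at 202 CPM and Scgb1b27 at 3.69 CPM (4 UMIs), while Aqp5 was at 1747 CPM, Tspan8 at 723 CPM and Cldn4 at 105 CPM; Trim29 and Cldn6 again had 0 UMIs.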

How the data were processed

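Single-cell counts of WT tumor were described beside WT hyperplasia, PKA tumor and PKA hyperplasia, with groups from the sample titles. The deposited counts are raw UMI counts per gene and barcode; Cell Ranger, STAR 2.5.3a, featureCounts and Subread 1.6.0 with GRCm38/mm10 are named in the submitters' processing notes. Classes, cluster numbers, density scores and the fraction of mitochondrial UMIs were taken as deposited by the authors, the classes made with Monocle2 per the series design; the sources used here do not say how barcodes were filtered.

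UMIs were summed per class and scaled to CPM. Ratios for calls used log2 of CPM plus 10; other ratios carry exact conditional binomial 95% intervals and shares exact Clopper-Pearson ones. Depth was 24499374 UMIs in WT tumor, 10797950 in WT hyperplasia, 16758734 in PKA tumor and 10648097 in PKA hyperplasia. Named genes were the 20 highest and 10 lowest against every other class, the 10 highest and 10 lowest against Luminal Progenitor 2, and members of 41 lists, leaving out mitochondrial, ribosomal, predicted and sex-linked genes; mt-Rnr1 and Hilpda are named in addition, after their values were seen. The members, markers and lists were chosen with earlier results of these data known. Planned names per deposited cluster gave way to groups by the Leiden method (10 components, 15 neighbours, resolution 0.5), since all cells lay in 1 cluster.

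Doublets were scored with Scrublet and none was removed; in WT hyperplasia it called 0 of 3808 cells and in PKA hyperplasia 5 of 3818, so it did not work there. Comparisons with single Luminal Progenitor 1 clusters and the match without secretoglobins and Car6 were added after the data were seen. The intervals were tested on simulated counts. Alternatives were other scalings, minimums, folds, added CPM and cell filters. Clustering used scanpy 1.11.5 and leidenalg 0.10.2, intervals SciPy 1.17.1, tables pandas 2.3.3 and NumPy 2.4.6, and figures matplotlib 3.10.9, in Python 3.11.15; edgeR 4.0.16 (TMM factors only) ran in R 4.3.3.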

Additional observations from a re-analysis of the deposited data

Results flagged for a closer look

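By summed level, secretoglobin genes and Car6 were higher in EMT-named cells than in the other classes in the WT tumor and lower in the PKA tumor. In the PKA tumor the log2 CPM ratio of the 238 EMT-named cells to the other classes together was -5.20 for Scgb1b27 (-7.08 to -3.85, from 4 UMIs), -0.545 for Scgb2b27 and -0.608 for Car6, compared with 5.18, 2.92 and 2.46 in the WT tumor. By share of cells at 1200 UMIs the order in the PKA tumor was otherwise for a pair of these genes. Scgb2b27 was found in 16.8% of EMT-named cells (12.3 to 22.2) and 8.72% of Luminal Progenitor 1 cells, and Car6 in 5.04% (2.63 to 8.64) and 2.55%, while Scgb1b27 was found in 0.420% and 0.603%; where a share goes against the level, no order is read. The difference between the tumors was not tested, since each is 1 library, and in the WT tumor 4 cells held 50% of the Scgb1b27 UMIs.

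The WT tumor file also held 619 barcodes outside the annotation, with 1078808 UMIs and a median of 740 per barcode. They held Scgb1b27 at 76.9 CPM, Scgb2b27 at 1118 CPM and Car6 at 36.2 CPM, each above the 2.78 CPM that a count of 0 allows. In the annotated cells of the other classes together the levels were 27.3, 801 and 50.2 CPM.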

How the results depend on the processing

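No paired analysis was possible because each group is 1 library. Alternatives for differences between deposited clusters of the EMT-named cells were not run, since there is 1 such cluster. The share of EMT-named cells was 13.2% of all barcodes and 12.8% of cells with at least 2000 UMIs, a limit added after seeing the data. The 12 genes above every other class became 6 with 50 CPM added, 27 at a minimum of 30 CPM, 4 at 300 CPM and 3 at a fold of 3; the 17 below became 11, 26, 11 and 3. Against Luminal Progenitor 2 the 369 higher genes became 825, 135 and 177 at minimums of 30 and 300 CPM and a fold of 3, and the 365 lower ones 698, 160 and 180. At a fold of 3 the leading genes were Scgb1b27, Scgb2b26 and Scgb2b27, and all 3 (100%) were highest in Luminal Progenitor 2. These 3 genes lie in one cluster on chromosome 7, so the share rests on a single locus. These counts moved with thresholds, which pass more or fewer genes; other scalings, cell filters, removal of doublets and removal of the cells with a Scgb1b27 UMI (9 genes above, 17 below) left them within 1.5 times. Totals without mitochondrial, ribosomal and secretoglobin genes shifted every log2 ratio to Luminal Progenitor 2 by -0.13. For 33 named genes, 218 alternative ratios lay within the counting interval of the reported one, 45 outside, and 0 changed sign. Groups within the class depended on the resolution, with 2 groups at 0.3 and 9 at 1. Depth limits statements on genes with few UMIs, such as Mki67.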

Other observations

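Of 12 measured Notch genes, 2 were higher (Dll1 and Dll4) and 3 lower (Jag1, Hes1 and Nrarp) in EMT-named cells than in the other classes together, and of 17 TGF-beta and BMP genes 7 were lower and none higher, where 4.25% of all genes were higher and 7.41% lower. Dll1, a Notch ligand, was at 80.9 CPM compared with 39.0 CPM in Luminal Progenitor 1, 1.84 CPM in Mature Luminal and 2.10 CPM in Lumino-Basal cells, a log2 ratio to the 3 together of 2.05 (1.80 to 2.29). Hes1, a repressor that Notch induces, was at 732 CPM compared with 2394, 1123 and 1738 CPM, a ratio of -1.39. Foxi1, a factor known from the ion-transporting cells of kidney and airway, was at 264.1 CPM compared with 155, 5.74 and 7.49 CPM, under 2-fold over Luminal Progenitor 1, and 22.0% of thinned EMT-named cells held a UMI, compared with 14.8% of Luminal Progenitor 1 and 0.501% of Lumino-Basal cells. Id1, a target of BMP signals, was at 26.6 CPM compared with 135, 34.0 and 277 CPM, under 2-fold below Mature Luminal cells. These genes were chosen after their values were seen.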
